A study of Mus musculus with 9 samples.

Results

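Uptake carriers of bile acids and other organic ions were examined in mouse liver: the genes whose symbols belong to the Slco, Slc22a and Slc10a families. They were found by symbol, among probe sets (groups of array probes summarised as 1 value) annotated to a single gene, and the brightest probe set was to stand for each gene. The rule gave 43 genes, each with 1 probe set, among 21789 probe sets with 1 gene symbol and 28939 tested: 15 Slco, 22 Slc22a and 6 Slc10a genes.

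RNA of whole liver was hybridised to 9 arrays, 3 in each of 3 groups of male mice on a C57/BL6 background, 8 to 9 weeks old and fed standard chow. The labelled double knockout combines loss of NEMO in hepatocytes with a constitutive p21 deletion carried by every cell type. The NEMO knockout lacks NEMO in hepatocytes alone, and what drives its deletion is not given in the sources used here. Wild type mice carry neither change, and no group lacked p21 alone. The NEMO protein (gene Ikbkg) regulates the kinase complex that activates NF-κB, and p21 (gene Cdkn1a) inhibits cyclin-dependent kinases. The series compared the livers of these genotypes.

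Hepatocytes take up bile acids, bilirubin, steroid conjugates and drugs from the blood across their sinusoidal membrane. Slc10a1 (NTCP) does so for conjugated bile acids together with sodium, and the Slco proteins (the OATP family) carry bile acids and a wide range of organic anions without sodium. Slc22a proteins carry organic cations, organic anions, carnitine or zwitterions. Several Slco and Slc22a genes lie in clusters of related neighbours and differ in abundance between male and female liver.

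All values are log2 expression as deposited, and differences are log2 differences of group means ± standard error (SE), fitted with limma on all 9 arrays. A gene was called, or said to have risen or fallen, at a Benjamini-Hochberg adjusted p under 0.05 over all probe sets tested. The array medians lay at 6.53 to 6.55 in the labelled double knockout, 6.52 to 6.58 in the NEMO knockout and 6.47 to 6.48 in wild type. Every wild type median was thus below every knockout median. Ikbkg had 8.10, 8.26 and 8.45 in the labelled double knockout, 8.23, 8.48 and 8.35 in the NEMO knockout and 8.73, 8.89 and 8.98 in wild type. The only probe set for Cdkn1a, which it shares with 4930567H12Rik, went against the label, with 11.14, 10.14 and 11.06 in the labelled double knockout, 9.76, 10.70 and 9.83 in the NEMO knockout and 8.54, 9.64 and 7.83 in wild type. Directions given for the labelled double knockout therefore rest on its label. Of 12 stellate cell and fibroblast markers, 10 were called higher in each knockout group against wild type. Of all probe sets, 5.81% were called higher in the labelled double knockout and 5.66% in the NEMO knockout. Hepatocyte markers such as albumin marked every array as liver: the mean of 9 measured markers lay at 13.24 to 13.37 in the labelled double knockout, 13.25 to 13.31 in the NEMO knockout and 13.31 to 13.33 in wild type, and none was called in any comparison. In whole tissue, fewer cells of a type and less RNA per cell cannot be told apart.

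Most carriers that passed the test were lower in the knockout livers. Between the labelled double knockout and wild type, 3 carriers rose (6.98% of 43, against 5.81% of all probe sets called higher) and 6 fell (14% of 43, against 3.51% called lower). Between the NEMO knockout and wild type 2 rose (4.65%, against 5.66% of all probe sets) and 6 fell (14%, against 2.02%). The largest changes against wild type were those of Slc22a27, which was 5.28-fold higher in the labelled double knockout and 3.27-fold higher in the NEMO knockout, and of Slco1a1, which was 3.26-fold and 2.55-fold lower in the same 2 groups. Between the labelled double knockout and the NEMO knockout, 1 carrier, Slc22a26, rose (0.0864% of all probe sets were called higher) and none fell (0.111% called lower), with 2 of 43 at an unadjusted p under 0.05. Both comparisons with wild type use the same wild type arrays. Median centring of the arrays gave 2 carriers higher and 9 lower for the labelled double knockout and 2 higher and 9 lower for the NEMO knockout. In the same setting all probe sets called were 1309 higher and 1661 lower, instead of 1680 and 1016, for the labelled double knockout, and 1304 and 1169, instead of 1638 and 584, for the NEMO knockout. Cyclic loess gave 3 carriers higher and 5 lower for the NEMO knockout, with 1879 of all probe sets higher and 533 lower.

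The 43 genes had a median difference of -0.08 between the labelled double knockout and wild type and -0.07 between the NEMO knockout and wild type, where all probe sets had -0.03 and -0.04. An F test for any difference between the 3 genotypes called 8 of 43, against 8.66% of all probe sets. Of the 43 genes, 23 had a mean level below the median of all probe sets (6.53), where array signal can be mostly background, and the file holds no detection calls. These include Slc22a26, Slc22a27, Slc22a29 and Slco1a6.

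**Figure D1:**
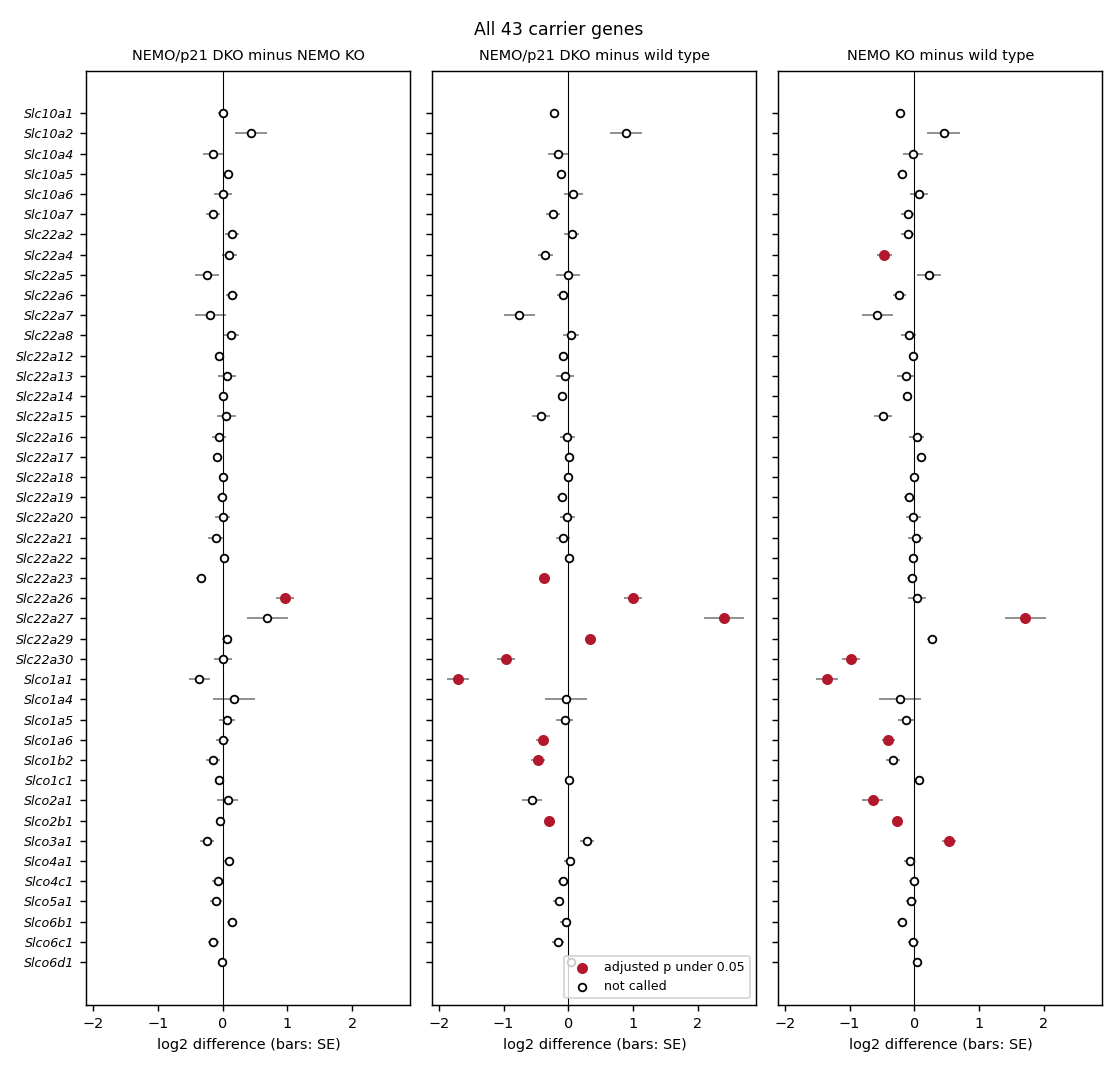
Log2 difference of each of the 43 carrier genes (horizontal axis, bars show SE) for the labelled double knockout (NEMO/p21 DKO) minus the NEMO knockout, the labelled double knockout minus wild type and the NEMO knockout minus wild type; red points are called at an adjusted p under 0.05. Slc22a27 and Slco1a1 lie farthest from 0 in both comparisons with wild type, and Slc22a26 is the 1 red point in the comparison of the knockout groups.

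Slc10a1, the sodium-dependent carrier of conjugated bile acids, was slightly lower in both knockout groups without passing the test. It had 12.81, 12.93 and 12.74 in the labelled double knockout, 12.88, 12.76 and 12.85 in the NEMO knockout and 13.04, 13.08 and 13.02 in wild type. Every wild type array was above every knockout array. The differences from wild type were -0.22 ± 0.07 for the labelled double knockout (adjusted p = 0.0896) and -0.22 ± 0.07 for the NEMO knockout (adjusted p = 0.0968). They passed at -0.28 with median centring (adjusted p = 0.0322 and 0.0382) and at the same -0.22 with an intensity trend (0.025 and 0.0278). For the labelled double knockout the filter on dim probe sets gave 0.0499. The knockout groups differed from each other by less than 0.01 at this probe set, with a 95% confidence interval of -0.16 to 0.16.

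Slc10a2 (ASBT), the apical bile acid carrier of ileum and bile duct cells, had higher values in the labelled double knockout. It read 9.68, 8.79 and 9.17 there, 8.40, 8.95 and 8.96 in the NEMO knockout and 8.43, 8.59 and 7.95 in wild type. All 3 arrays of the labelled double knockout were above wild type, by 0.89 ± 0.25 (adjusted p = 0.057), and the NEMO knockout overlapped wild type, at 0.45 ± 0.25 (adjusted p = 0.366). With all 9 arrays the first difference passed under quantile normalisation, cyclic loess, the filter on dim probe sets, array weights and the test of probe sets with 1 symbol (adjusted p = 0.0298 to 0.0489). It was 1.104 and passed without labelled double knockout replicate 2 (adjusted p = 0.0326). Bile duct cell markers were on average higher than in wild type in both knockout groups, and not in the labelled double knockout alone. Of 9 such markers measured, Slc10a2 among them, 3 were called higher in the labelled double knockout and 4 in the NEMO knockout. Of all probe sets, 5.81% and 5.66% were called higher. The mean of the other 8 markers lay at 6.11 to 6.61 in the labelled double knockout, 6.16 to 6.48 in the NEMO knockout and 5.70 to 5.82 in wild type. The bile duct list as drawn up also names Spp1, which is on the list of infiltrating macrophage markers too. The part of bile duct cells in the Slc10a2 values was not tested.

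None of the 6 Slc10a genes was called in any of the 3 comparisons by limma, with 2, 2 and 0 at an unadjusted p under 0.05 for the labelled double knockout against wild type, the NEMO knockout against wild type and the knockout groups against each other. Slc10a5, an orphan member of the family, was at -0.11 ± 0.07 in the labelled double knockout and -0.19 ± 0.07 in the NEMO knockout relative to wild type. The 3 labelled double knockout arrays share 1 Slc10a5 value, 9.74, which the summary method can produce. The others were Slc10a4, Slc10a6, a carrier of sulfated steroids, and Slc10a7. They differed from wild type by -0.24 to 0.08 in the labelled double knockout and by -0.10 to 0.07 in the NEMO knockout.

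Slco1a1 (Oatp1a1), a carrier of bile acids and steroid conjugates that is more abundant in male than in female mouse liver, fell in both knockout groups. Its values were 10.35, 9.92 and 9.68 in the labelled double knockout, 10.21, 10.40 and 10.40 in the NEMO knockout and 11.74, 11.45 and 11.87 in wild type. No knockout array reached the lowest wild type array, while the knockout groups overlapped each other. The differences from wild type were -1.71 ± 0.17 in the labelled double knockout (adjusted p = 0.000402) and -1.35 ± 0.17 in the NEMO knockout (adjusted p = 0.00138). Leaving out each array in turn gave -1.89 to -1.56 and -1.47 to -1.26, and both calls held in each of these fits. Between the knockout groups the difference was -0.36 ± 0.17 (95% confidence interval -0.73 to 0.02, adjusted p = 0.681).

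The stretch of 300 bases around the annotated Slco1a1 start, 250 before and 50 after it, is shown as the reference sequence beside the largest decrease. It comes from RefSeq on GRCm38.p6, minus strand, chr6:141946913-141947212, and capitals mark TTTATA, the reverse complement of the TATA box letters TATAAA, at positions -209 and -99 relative to the start.
Slco1a1: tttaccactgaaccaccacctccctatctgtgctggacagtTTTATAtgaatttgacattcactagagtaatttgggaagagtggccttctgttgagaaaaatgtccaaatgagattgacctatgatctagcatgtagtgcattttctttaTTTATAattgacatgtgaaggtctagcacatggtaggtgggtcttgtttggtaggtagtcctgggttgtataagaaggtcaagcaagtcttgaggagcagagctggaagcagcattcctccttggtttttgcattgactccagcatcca

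Slco1b2 (Oatp1b2), which takes up bilirubin conjugates, unconjugated bile acids and statins, fell in the labelled double knockout. It had 10.96, 10.98 and 10.82 there, 11.25, 10.83 and 11.09 in the NEMO knockout and 11.41, 11.28 and 11.49 in wild type. All knockout arrays lay below all wild type arrays. The labelled double knockout was at -0.47 ± 0.11 (1.39-fold lower, adjusted p = 0.025) and the NEMO knockout at -0.33 ± 0.11 (adjusted p = 0.108). The first call ended without any of the labelled double knockout arrays or without wild type replicate 1 or 3 (adjusted p = 0.0512 to 0.0965), and the second difference passed with median centring (adjusted p = 0.0432), with array weights (0.0368) and, at -0.43, without NEMO knockout replicate 1 (0.0401). The knockout groups differed by -0.14 ± 0.11 (adjusted p = 0.846).

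Slco2b1 (Oatp2b1), a carrier of steroid sulfates and drugs, fell by a small amount in both groups. Its values were 9.74, 9.67 and 9.71 in the labelled double knockout, 9.69, 9.80 and 9.75 in the NEMO knockout and 10.11, 9.97 and 9.93 in wild type, again without overlap between knockout and wild type arrays. It was at -0.30 ± 0.07 in the labelled double knockout (adjusted p = 0.024) and -0.26 ± 0.07 in the NEMO knockout (adjusted p = 0.049). The NEMO knockout call was at the threshold and ended when any 1 of the 9 arrays was left out (adjusted p = 0.0635 to 0.152), and with the replicate block, cyclic loess, array weights or only the 2 groups compared (0.0507 to 0.105). The other call ended without any of its own arrays or without wild type replicate 1 (0.0524 to 0.0803).

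Slco1a6, mainly a kidney gene, fell in both groups at a low signal. It had 4.13, 4.15 and 4.39 in the labelled double knockout, 4.37, 4.09 and 4.18 in the NEMO knockout and 4.73, 4.55 and 4.57 in wild type. The differences were -0.40 ± 0.10 in the labelled double knockout (adjusted p = 0.0377) and -0.40 ± 0.10 in the NEMO knockout (adjusted p = 0.0402). The first call ended without labelled double knockout replicate 1 or 2, NEMO knockout replicate 3 or any wild type array, and with only the 2 groups compared in the fit (0.0521 to 0.128). The second ended without labelled double knockout replicate 1 or 2, NEMO knockout replicate 2 or 3 or any wild type array, and with only the 2 groups compared (0.0504 to 0.133).

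Slco1a4 (Oatp1a4), a carrier of digoxin and bile acids, varied more between mice of a group than between groups. It had 9.11, 8.45 and 8.96 in the labelled double knockout, 9.37, 8.31 and 8.30 in the NEMO knockout and 8.50, 9.39 and 8.74 in wild type. The groups overlapped throughout, and the differences from wild type were -0.04 ± 0.32 (95% confidence interval -0.77 to 0.69) and -0.22 ± 0.32 (-0.95 to 0.51) for the labelled double knockout and the NEMO knockout. These intervals leave room for changes in either direction. Slco1a1 and Slco1a4 are neighbours on chromosome 6 with no coding gene between them in the gene table of GRCm38.p6. The other members of that cluster, Slco1c1 and Slco1a5, differed from wild type by -0.13 to 0.06 across both knockout groups and were not called.

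Slco2a1, the prostaglandin transporter, is known from endothelial cells among others. It read 10.88, 10.69 and 10.95 in the labelled double knockout, 10.41, 10.92 and 10.96 in the NEMO knockout and 11.61, 11.16 and 11.43 in wild type, and all knockout arrays were below all wild type arrays. It fell in the NEMO knockout (-0.64 ± 0.16, adjusted p = 0.0424) and was at -0.56 ± 0.16 in the labelled double knockout (adjusted p = 0.0632). The NEMO knockout call ended when any 1 array other than wild type replicate 2 was left out (adjusted p = 0.0528 to 0.138). That call also ended with the replicate number as a block (0.0604) and, separately, with only the 2 groups compared (0.0919). In the labelled double knockout it passed without NEMO knockout replicate 1, with median centring, array weights or an intensity trend, with only the 2 groups compared and when only probe sets above the median level were tested (adjusted p = 0.0189 to 0.0482). None of 12 endothelial markers was called in either comparison, and their mean lay at 8.83 to 9.08 in the labelled double knockout, 8.80 to 9.00 in the NEMO knockout and 8.92 to 9.06 in wild type. The part of endothelial cells in the Slco2a1 values was not tested.

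Slco3a1, a widely expressed carrier of prostaglandins and thyroid hormone, rose in the NEMO knockout. It had 8.44, 8.42 and 8.56 in the labelled double knockout, 8.50, 8.72 and 8.94 in the NEMO knockout and 8.09, 8.30 and 8.16 in wild type. Knockout arrays were above all wild type arrays in both groups. The NEMO knockout was at 0.53 ± 0.11 (1.45-fold higher, adjusted p = 0.0169) and the labelled double knockout at 0.29 ± 0.11 (adjusted p = 0.158), and the 2 differed by -0.24 ± 0.11 (adjusted p = 0.673). The NEMO knockout call ended without NEMO knockout replicate 2 or wild type replicate 1 or 3 (0.0549 to 0.0639). Markers of several cell types were called higher in each knockout group: 10 of 11 for infiltrating macrophages and 10 of 12 for stellate cells and fibroblasts. For Kupffer cells, 8 of 12 were called higher and 1 lower in each. Of all probe sets, 5.81% were called higher and 3.51% lower in the labelled double knockout, and 5.66% and 2.02% in the NEMO knockout. The mean of the infiltrating macrophage markers lay at 7.92 to 8.25 in the labelled double knockout, 7.98 to 8.16 in the NEMO knockout and 6.42 to 6.59 in wild type. The part of these cell types in the Slco3a1 rise was not tested.

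**Figure D2:**
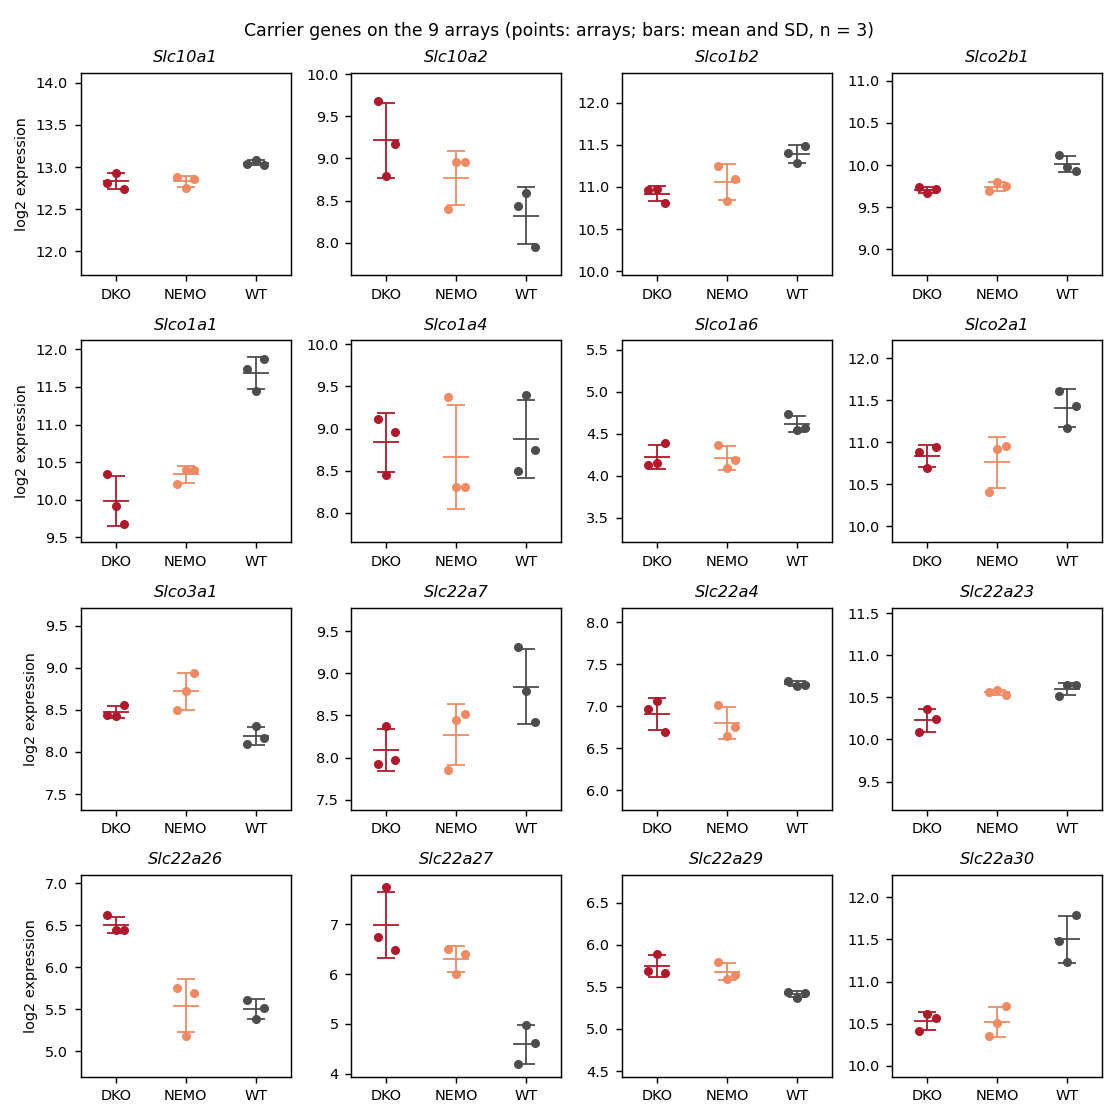
Log2 expression of 16 carrier genes on each array (points) with the mean and SD of each group (bars, n = 3), for the labelled double knockout (DKO), the NEMO knockout (NEMO) and wild type (WT); the vertical axis differs between panels. Slco1a1 and Slc22a30 sit lower and Slc22a27 higher in both knockout groups than in wild type, and Slc22a26 is higher in the labelled double knockout alone.

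The remaining Slco genes were not called in any comparison and include Slco4a1, Slco4c1, Slco5a1 and the Slco6 genes known from testis. None of them had a mean above the median level of all probe sets. Among them Slco6b1, at 0.15 ± 0.08, was 1 of the 5 largest increases of the labelled double knockout over the NEMO knockout (adjusted p = 0.73). Its mean level was 3.55 in the labelled double knockout and 3.40 in the NEMO knockout. The gene table gives Slco6b1 as a long non-coding RNA, so it was included by symbol only.

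Several of the Slc22a genes that passed the test lie in a cluster of related genes on chromosome 19. In the gene table of GRCm38.p6, Slc22a19, Slc22a26, Slc22a27, Slc22a28, Slc22a29, Slc22a30, Slc22a8 and Slc22a6 follow each other there with no other coding gene between them. Slc22a8 (OAT3) and Slc22a6 (OAT1) are the organic anion carriers of the kidney tubule, and the others are rodent relatives of them. The neighbours Slc22a26, Slc22a27, Slc22a29 and Slc22a30, were called against wild type in at least 1 knockout group, and they did not move one way.

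Slc22a30 fell in both groups. It had 10.41, 10.62 and 10.57 in the labelled double knockout, 10.35, 10.51 and 10.71 in the NEMO knockout and 11.49, 11.23 and 11.78 in wild type. Knockout and wild type arrays did not overlap. The differences were -0.97 ± 0.14 in the labelled double knockout (1.96-fold lower, adjusted p = 0.00282) and -0.98 ± 0.14 in the NEMO knockout (1.97-fold lower, adjusted p = 0.00306). The knockout groups differed by 0.01 ± 0.14 (95% confidence interval -0.31 to 0.33).

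Slc22a27 rose in both groups. Its values were 6.75, 7.75 and 6.49 in the labelled double knockout, 6.51, 6.002 and 6.40 in the NEMO knockout and 4.19, 4.97 and 4.62 in wild type, so that every knockout array was above the highest wild type array by about 1 or more. The differences were 2.40 ± 0.31 in the labelled double knockout (adjusted p = 0.00165) and 1.71 ± 0.31 in the NEMO knockout (adjusted p = 0.01). The spread within groups was wide, and the knockout groups differed by 0.69 ± 0.31 (95% confidence interval -0.02 to 1.40, adjusted p = 0.676). Wild type values were in the low range of the array, which can understate the fold.

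Slc22a26 rose in the labelled double knockout relative to both other groups. It had 6.62, 6.45 and 6.45 in the labelled double knockout, 5.76, 5.18 and 5.69 in the NEMO knockout and 5.61, 5.38 and 5.52 in wild type. Its arrays stood clear of the other groups, which overlapped each other. Its difference from wild type was 0.998 ± 0.14 (adjusted p = 0.00255). From the NEMO knockout it was 0.96 ± 0.14 (1.95-fold, adjusted p = 0.0405), and the NEMO knockout was at 0.04 ± 0.14 from wild type (adjusted p = 0.917). The call between the knockout groups ended when any 1 array other than NEMO knockout replicate 2 was left out (adjusted p = 0.0568 to 0.161), wild type arrays included, and with only those 2 groups in the fit (0.142). Its size in those fits ran from 0.90 to 1.07, and it was 0.78 without NEMO knockout replicate 2 (adjusted p = 0.0475). The call against wild type held whichever array was left out, with a highest adjusted p of 0.0134.

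Slc22a29 had 5.69, 5.90 and 5.66 in the labelled double knockout, 5.79, 5.60 and 5.65 in the NEMO knockout and 5.44, 5.37 and 5.42 in wild type. It rose in the labelled double knockout (0.34 ± 0.08, adjusted p = 0.0316) and was at 0.27 ± 0.08 in the NEMO knockout (adjusted p = 0.0878), which passed with quantile normalisation (0.0482) and cyclic loess (0.0424). The labelled double knockout call ended without any array of the labelled double knockout or wild type, with the replicate block and with median centring (0.0517 to 0.0928). Sequences of these genes are alike, so their probe sets may share signal. A further probe set is annotated jointly to Slc22a28, Slc22a29 and Slc22a30 and is no member; it had 10.36, 10.32 and 10.26 in the labelled double knockout, 10.19, 10.23 and 10.38 in the NEMO knockout and 11.37, 10.99 and 11.59 in wild type. It therefore ran lower in the knockout groups, like Slc22a30 and unlike Slc22a29. The cluster's kidney genes Slc22a6 and Slc22a8 and Slc22a19 were not called, with differences from wild type of -0.10 to 0.04 in the labelled double knockout and -0.23 to -0.09 in the NEMO knockout.

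**Figure D3:**
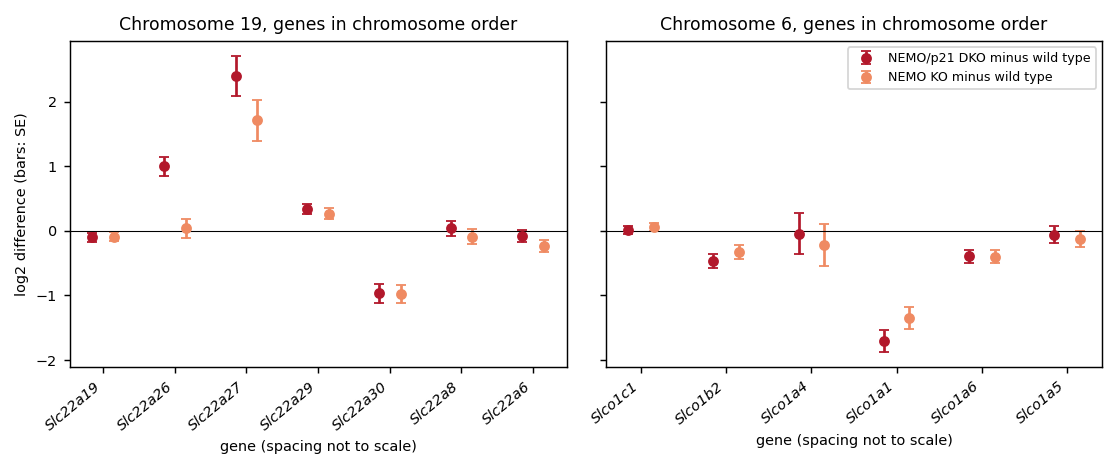
Log2 differences from wild type (vertical axis, bars show SE) of the labelled double knockout (NEMO/p21 DKO) and of the NEMO knockout for the measured carriers of the chromosome 19 and chromosome 6 clusters, in their order along the chromosome. Slc22a26, Slc22a27 and Slc22a29 lie at or above 0 and Slc22a30 below it, and on chromosome 6 Slco1a1 lies lowest.

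The start regions of the 4 changed cluster genes are shown because neighbours with related sequence moved in opposite directions. Each has 300 bases from RefSeq on GRCm38.p6, minus strand: Slc22a26 at chr19:7802618-7802917, Slc22a27 at chr19:7965978-7966277, Slc22a29 at chr19:8218851-8219150 and Slc22a30 at chr19:8405056-8405355. Capitals mark TTCAGGGAA, a match to the STAT5 palindrome TTCNNNGAA at position -141 of Slc22a26, and ATTAAC, the reverse complement of the HNF1 letters GTTAAT, at position -29 of Slc22a29. No searched motif was found in the windows of the others.
Slc22a26: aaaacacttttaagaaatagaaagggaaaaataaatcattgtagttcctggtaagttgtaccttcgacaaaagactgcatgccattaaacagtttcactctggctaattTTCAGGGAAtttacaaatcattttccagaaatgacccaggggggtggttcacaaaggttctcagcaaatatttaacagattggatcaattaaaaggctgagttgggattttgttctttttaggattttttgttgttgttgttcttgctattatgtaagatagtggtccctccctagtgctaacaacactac
Slc22a27: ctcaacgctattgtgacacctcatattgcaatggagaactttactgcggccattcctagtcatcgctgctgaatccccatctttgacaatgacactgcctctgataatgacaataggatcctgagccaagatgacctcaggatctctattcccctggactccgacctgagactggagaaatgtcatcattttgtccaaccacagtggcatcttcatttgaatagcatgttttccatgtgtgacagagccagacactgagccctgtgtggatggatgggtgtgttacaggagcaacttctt
Slc22a29: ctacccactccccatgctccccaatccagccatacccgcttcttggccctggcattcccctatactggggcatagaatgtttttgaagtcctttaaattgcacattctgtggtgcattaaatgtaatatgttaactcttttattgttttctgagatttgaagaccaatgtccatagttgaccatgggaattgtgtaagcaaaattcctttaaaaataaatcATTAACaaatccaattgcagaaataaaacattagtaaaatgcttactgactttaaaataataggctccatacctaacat
Slc22a30: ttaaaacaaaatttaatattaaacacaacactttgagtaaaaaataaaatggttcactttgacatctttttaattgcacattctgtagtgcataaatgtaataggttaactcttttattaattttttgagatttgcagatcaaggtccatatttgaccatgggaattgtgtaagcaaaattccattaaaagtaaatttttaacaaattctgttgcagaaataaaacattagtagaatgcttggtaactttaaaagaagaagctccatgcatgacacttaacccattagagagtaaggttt

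In an alignment of these windows that left end gaps free, Slc22a29 and Slc22a30 were identical at 211 of 271 aligned bases (77.9%), although the 2 genes differed from wild type in opposite directions. Slc22a28 and Slc22a30 were identical at 288 of 294 (98%). Slc22a27 was at 54.9% to Slc22a26, 57.8% to Slc22a29 and 60.3% to Slc22a30. The windows of the chromosome 6 cluster were at 53.7% to 65.5% in all pairs, and those of the neighbours Slco1a4 and Slco1a1 at 58.5%.

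Start regions were found for 38 of the 43 carriers, 44 windows in all, and both strands were searched for 6 motifs. The TATA letters TATAAA were in 9 of 44 windows (20.5%) against 13.6% of all 32851 windows, and the STAT5 palindrome in 9 (20.5%) against 8.3%. The HNF1 letters GTTAAT were in 5 windows (11.4%), those of Slco1b2, Slc10a2, Slc22a29, Slc22a8 and Slc22a6, against 7.1%. The HNF4 core CAAAGTCCA, the FXR inverted repeat and the NF-κB site were in 0 of 44, against 0.475%, 0.0365% and 8.46% of all windows. Each motif was counted on its own, whether or not a match overlapped another. These are matches of letters, counted without a test.

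Outside the chromosome 19 cluster, 2 Slc22a genes were called, both lower. Slc22a4 (OCTN1), which carries ergothioneine, had 6.96, 7.07 and 6.69 in the labelled double knockout, 7.02, 6.64 and 6.75 in the NEMO knockout and 7.30, 7.24 and 7.26 in wild type. Wild type arrays were above all knockout arrays. Slc22a4 fell in the NEMO knockout (-0.46 ± 0.12, adjusted p = 0.0418) and was at -0.36 ± 0.12 in the labelled double knockout (adjusted p = 0.0967). The call ended without labelled double knockout replicate 1, NEMO knockout replicate 2 or 3 or any wild type array (0.0609 to 0.134). Its chromosome 11 neighbours Slc22a5 (OCTN2), the carnitine carrier, and Slc22a21 were not called. Slc22a5 had 8.35, 7.99 and 8.02 in the labelled double knockout, 8.18, 8.82 and 8.08 in the NEMO knockout and 8.08, 8.04 and 8.28 in wild type, with overlapping groups. Its differences from wild type were -0.01 ± 0.18 in the labelled double knockout and 0.23 ± 0.18 in the NEMO knockout.

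Slc22a23, an orphan carrier, fell in the labelled double knockout. It had 10.09, 10.36 and 10.24 there, 10.57, 10.58 and 10.52 in the NEMO knockout and 10.52, 10.64 and 10.64 in wild type. All other arrays were higher. Against wild type the difference was -0.37 ± 0.08 (adjusted p = 0.0185). Between the knockout groups it was -0.33 ± 0.08 (adjusted p = 0.239). The NEMO knockout was at -0.04 ± 0.08 from wild type. The call against wild type ended without labelled double knockout replicate 1 or 3 or wild type replicate 2 or 3 (0.0545 to 0.0675).

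Slc22a7 (OAT2), an organic anion carrier of hepatocytes, had 7.92, 8.37 and 7.97 in the labelled double knockout, 7.85, 8.45 and 8.52 in the NEMO knockout and 9.31, 8.80 and 8.42 in wild type. Every labelled double knockout array was below wild type, and the NEMO knockout overlapped it, and neither difference passed (-0.76 ± 0.24, adjusted p = 0.0967, and -0.57 ± 0.24, adjusted p = 0.227). Slc22a15, a carrier of zwitterions, was at -0.42 ± 0.14 in the labelled double knockout and -0.49 ± 0.14 in the NEMO knockout (adjusted p = 0.113 and 0.0775), with all wild type arrays above all knockout arrays. The NEMO knockout difference passed with quantile normalisation, median centring and the filter on dim probe sets (0.0481 to 0.04998). The imprinted gene Slc22a18 had 10.89, 10.90 and 10.85 in the labelled double knockout, 10.86, 10.89 and 10.89 in the NEMO knockout and 10.92, 10.90 and 10.83 in wild type, and its 95% confidence intervals reached no farther than 0.13 either way in the 3 comparisons.

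For the carriers not called between the knockout groups, the 95% confidence intervals bound what could be missed. Of 42 such genes, 35 had an interval inside ± 0.5. The widest reach was from -0.73 for Slc22a7 to 1.40 for Slc22a27. Against wild type the intervals of uncalled carriers reached from -1.30 (Slc22a7) to 1.45 (Slc10a2) in the labelled double knockout and from -1.12 (Slc22a7) to 1.01 (Slc10a2) in the NEMO knockout.

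Related genes of bile acid handling were read from the same fit. For this list and those below, the shares of all probe sets called against wild type serve for comparison. They were 5.81% higher and 3.51% lower in the labelled double knockout and 5.66% higher and 2.02% lower in the NEMO knockout. The medians of all probe sets were -0.03 and -0.04. Among 16 exporters of bile acids and organic anions, 4 rose and 1 fell in the labelled double knockout and 3 rose and 1 fell in the NEMO knockout, with medians of -0.02 and -0.07. The bile salt export pump Abcb11 fell, with 11.45, 11.59 and 11.64 in the labelled double knockout, 11.80, 11.72 and 11.76 in the NEMO knockout and 12.01, 12.06 and 12.08 in wild type (-0.49 ± 0.07, adjusted p = 0.00198, and -0.29 ± 0.07, adjusted p = 0.0294). Its 3 groups did not overlap, and the knockout groups differed by -0.20 ± 0.07 (adjusted p = 0.498). The drug exporter Abcb1a rose by 0.77 ± 0.19 in the labelled double knockout and 0.86 ± 0.19 in the NEMO knockout, the phospholipid flippase Abcb4 by 0.47 ± 0.11 and 0.67 ± 0.11, and Abcc1 by 0.30 ± 0.07 and 0.45 ± 0.07. The sinusoidal exporter Abcc4 rose in the labelled double knockout (0.42 ± 0.10, adjusted p = 0.0245) and was at 0.30 ± 0.10 in the NEMO knockout (adjusted p = 0.102).

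Of 14 bile acid synthesis and conjugation genes, 8 fell in the labelled double knockout and 5 in the NEMO knockout, and none rose, with medians of -0.29 and -0.26. In the labelled double knockout Cyp7b1 was at -1.83 ± 0.33, the 12-alpha-hydroxylase Cyp8b1 at -1.29 ± 0.32, Hsd3b7 at -0.66 ± 0.10 and the bile acid ligase Slc27a5 at -0.43 ± 0.07. In the NEMO knockout Cyp7b1 was at -1.98 ± 0.33, Acox2 at -0.38 ± 0.07, the conjugating enzyme Baat at -0.35 ± 0.08 and Slc27a5 at -0.28 ± 0.07. No gene of these lists was called between the knockout groups by limma.

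Among 23 transcriptional and hormonal regulators of carrier genes, 1 rose and 3 fell in the labelled double knockout and 1 rose and none fell in the NEMO knockout. Nfe2l2 (Nrf2) rose by 0.55 ± 0.07 (adjusted p = 0.00119) in the labelled double knockout and 0.52 ± 0.07 in the NEMO knockout (adjusted p = 0.00191). In the labelled double knockout the growth factor receptor Fgfr4 fell (-0.45 ± 0.08, adjusted p = 0.00688), as did the growth hormone receptor Ghr (-0.28 ± 0.07, adjusted p = 0.0407) and the nuclear receptor Nr5a2 (-0.26 ± 0.06, adjusted p = 0.0299). Further uncalled regulators were picked after their values were seen. The bile acid receptor Nr1h4 (FXR) was at 0.06 ± 0.09 in the labelled double knockout and 0.08 ± 0.09 in the NEMO knockout, and Hnf4a at -0.03 ± 0.09 and -0.05 ± 0.09. Of 9 membrane partners and anchors, Atp1b1, a sodium pump subunit, rose in the labelled double knockout (0.67 ± 0.18, adjusted p = 0.0487) and the cytoskeletal linker Ezr in the NEMO knockout (0.38 ± 0.07, adjusted p = 0.0105).

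Sex-biased liver genes were counted because Slco1a1 is one of them. Of 12 other male-biased genes, 5 fell in the labelled double knockout and 7 in the NEMO knockout, and none rose, with medians of -1.06 and -0.91. Hsd3b5 had 7.54, 7.88 and 5.95 in the labelled double knockout, 6.35, 8.03 and 7.58 in the NEMO knockout and 11.92, 11.79 and 11.94 in wild type. The 3 next in the labelled double knockout were Elovl3 (-2.58 ± 0.39), Mup21 (-1.85 ± 0.31) and Cyp7b1, and in the NEMO knockout Serpina4-ps1 (-3.01 ± 0.55), Elovl3 (-2.39 ± 0.39) and Cyp7b1. Of 9 female-biased genes measured, Abcd2 and Prom1 rose in both groups and none fell, with list medians of 0.54 and 0.52. Prom1 is also a marker of bile duct cells. Abcd2 was at 1.28 ± 0.23 in the labelled double knockout and 2.06 ± 0.23 in the NEMO knockout, and Prom1 at 1.01 ± 0.14 and 0.72 ± 0.14.

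**Figure D4:**
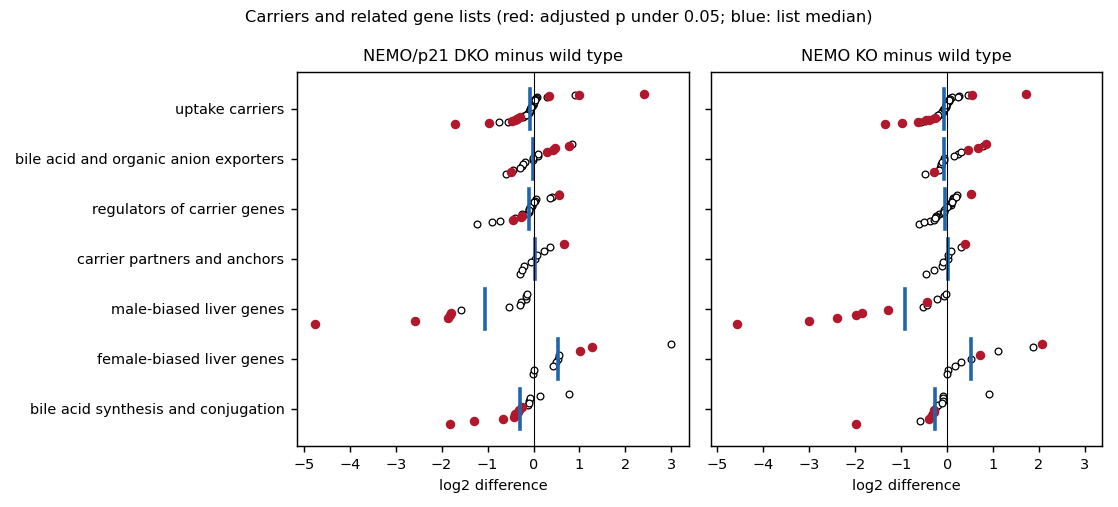
Log2 difference of each gene (points) of the 43 uptake carriers and 6 related lists for the labelled double knockout (NEMO/p21 DKO) minus wild type and the NEMO knockout minus wild type; red points are called at an adjusted p under 0.05 and blue lines are list medians. Carriers, exporters and regulators have medians near 0 with changes both ways, and male-biased genes have medians of -1.06 and -0.91.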

How the data were processed

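Expression was measured in 9 livers with single-channel Affymetrix gene arrays. The deposited table holds log2 expression values that the authors summarised with RMA, per the submitters' processing notes. The log base was inferred from RMA and the range of values. Its version, the genome build and any filters were not stated in the labels. A general shift of all RNA would be hidden by the quantile step. Of 35556 probe sets, 6617 with identifiers below the first annotated one were left out as presumed controls, and 28939 were tested. Group differences came from limma (3.58.1, under R 4.3.3; lmFit, eBayes without trend), 1 mean per group, with Benjamini-Hochberg adjustment over all probe sets tested. Nothing in the labels ties arrays to litters, so whether the mice are independent is not known. The p-values set each group difference against the spread between arrays within the groups, and cover only these samples. The labels name no batch, and their array identifiers run in blocks by genotype. An array order that followed the identifiers could not be told apart from genotype. The fit was tested on simulated data with normal noise. Of 67 changes of 0.5 log2, 36 to 39 were called, depending on the comparison. Of 67 changes of 1 log2, 63 to 66 were called. Unchanged probe sets called numbered 8 to 10. The members and gene lists were chosen with earlier results of these data known. Named with values were the called carriers, known hepatic carriers, the 5 largest increases and decreases per comparison, the 3 brightest of each family and, for each list, its called members, 4 at most. Start regions and gene order come from RefSeq tables of GRCm38.p6, used with gene identifiers, and windows were aligned with Biopython 1.88. Alternatives were the replicate number as a block, leaving out each array, 3 other normalisations, a filter on dim probe sets, array weights, an intensity trend and fits of 2 groups. A test on probe sets with 1 symbol was added after seeing the data.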

Additional observations from a re-analysis of the deposited data

How the results depend on the processing

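The calls of Slco1a1 and Slc22a30 against wild type in both knockout groups held under every alternative run, and those of Slc22a27 in both groups and of Slc22a26 in the labelled double knockout against wild type held under each one except the filter on dim probe sets, which removed both genes. Leaving out each array in turn, the carriers called numbered 4 to 10 for the labelled double knockout against wild type (9 with all arrays), 3 to 8 for the NEMO knockout against wild type (8), 0 to 1 between the knockout groups (1) and 4 to 12 in the F test (8), in fits with fewer samples. The NEMO knockout count was 5 with only the 2 groups compared. Between the knockout groups no carrier was called by limma with only those 2 groups (0) or after the filter on dim probe sets (0), which took out Slc22a26. The other alternatives left the counts within 1.5 times. Directions turned for Slc10a1, Slc22a5 and Slco1a4, in comparisons where they were not called. Slc10a1 between the knockout groups was at -0.00712 with quantile normalisation, -0.00116 with median centring and -0.0150 with cyclic loess, and ran from -0.0512 to 0.0437 with arrays left out. Against wild type in the labelled double knockout, Slc22a5 was at 0.0373 with cyclic loess (-0.13 to 0.0621 with arrays left out), and Slco1a4 at 0.0113 with cyclic loess and 0.0338 with array weights (-0.23 to 0.22). In the NEMO knockout against wild type, Slc22a5 (0.23 with all arrays) ran from -0.00160, without NEMO knockout replicate 2, to 0.37, and Slco1a4 (-0.22) from -0.57 to 0.0401, the highest without wild type replicate 2, and between the knockout groups Slco1a4 ran from -0.00499 to 0.53. The causes were not tested. Over all named carriers and alternatives, 682 results kept direction and side of the threshold, 77 lost their call, 25 gained one and 16 turned. Averaging probe sets of a gene changed nothing, since each carrier has 1. Deviations from the group means were correlated across probe sets between same-numbered arrays of different groups. The correlations were 0.09 to 0.39 for replicate 1, -0.12 to 0.08 for replicate 2 and -0.04 to 0.25 for replicate 3. Differently numbered arrays were not compared, so these values cannot decide whether the numbers pair mice. The main fit did not take them to do so. With the replicate block the counts were 8, 6, 1 and 6 for the labelled double knockout against wild type, the NEMO knockout against wild type, the knockout groups and the F test. Background correction could not be varied from summarised values, and signal near background limits the 23 carriers below the median level.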

Other observations

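A probe set annotated jointly to Slc10a3 and Gm44504 had 7.22, 7.26 and 7.26 in the labelled double knockout, 7.23, 7.26 and 7.26 in the NEMO knockout and 7.30, 7.50 and 7.23 in wild type. One annotated jointly to Slc10a4 and Slc10a4l had 5.97, 5.88 and 5.84 in the labelled double knockout, 6.05, 5.82 and 5.97 in the NEMO knockout and 6.07, 6.01 and 6.003 in wild type. Neither was called in any comparison. Cyp2b9, a female-biased cytochrome P450 picked after its values were seen, had 10.97, 10.59 and 10.90 in the labelled double knockout, 10.84, 9.05 and 9.16 in the NEMO knockout and 9.74, 8.06 and 5.67 in wild type, and its difference of 2.99 ± 0.87 between the labelled double knockout and wild type did not pass (adjusted p = 0.0657). NEMO knockout replicate 1 had the highest Slco1a4 and Cyp2b9 values of its group and the lowest weight of the 9 arrays, 0.412. Kidney tubule markers, which would come with the kidney carriers Slc22a6 and Slc22a8, had a mean of 5.51 to 5.61 in the labelled double knockout, 5.43 to 5.66 in the NEMO knockout and 5.52 to 5.58 in wild type, and none of 9 was called.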
